A study of Mus musculus with 29 samples.

Results

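Transcripts of 8 genes of neuroendocrine and presynaptic cells (Th, Dbh, Chga, Resp18, Ptprn, Ppfia2, Disp2 and Rit2) were followed through the mouse ovary from midgestation to adulthood. The genes were taken by name, and some of them had been chosen by their lower counts in Cdkn1b-null than in wild-type ovaries at embryonic day 13.5. All 8 were found among the 51912 genes of the deposited table. The choice had no numerical threshold, and it used the E13.5 libraries of both genotypes. The E13.5 values of the 8 genes are therefore given as a description without a test, and tests are reported for the later ages alone.

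RNA of papain-dissociated mouse ovaries was sequenced in bulk. The ovaries were wild type or Cdkn1b -/- (p27null), which lack the cyclin-dependent kinase inhibitor p27, and came from 2 fetal ages (E13.5 and E18.5), the juvenile ovary on postnatal day 8 (PND8) and the adult ovary of 12 weeks (12wk). Every wild-type group had 4 libraries. The Cdkn1b-null group of E18.5 also had 4, and the other 3 null groups had 3 each. The strain, the litters and the number of animals behind a library were not given in the sources used here, so the p-values below measure only the spread between these libraries, which may be technical in part.

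Neuroendocrine cells store amines and peptides in dense-core granules and release them on demand. In the mouse embryo, chromaffin cells and sympathetic neurons arise from trunk neural crest that passes close to the dorsal aorta, near the developing adrenal gland, mesonephros and gonad. Tyrosine hydroxylase (Th) carries out the rate-limiting step of catecholamine synthesis, and dopamine beta-hydroxylase (Dbh) turns dopamine into noradrenaline inside the granule. In a bulk sample, fewer cells of a type and less RNA per cell cannot be told apart.

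Th (ENSMUSG00000000214, chr7:142892752-142931128, minus strand) and Dbh (ENSMUSG00000000889, chr2:27165233-27183200, plus strand) are the 2 enzyme genes of the group. Chga (ENSMUSG00000021194, chr12:102554969-102565028, plus strand) encodes chromogranin A, an abundant soluble protein of the granule core. Resp18 (ENSMUSG00000033061, chr1:75272199-75278415, minus strand) and Ptprn (ENSMUSG00000026204, chr1:75247027-75264502, minus strand) encode granule proteins, the second being the transmembrane protein IA-2, a major autoantigen of type I diabetes. Resp18 and Ptprn are neighbours, 7696 bases apart with 0 annotated genes between them. Ppfia2 (ENSMUSG00000053825, chr10:106470339-106935952, plus strand) encodes liprin-alpha-2, a scaffold of the presynaptic active zone, and Rit2 (ENSMUSG00000057455) encodes a small GTPase of neurons. Disp2 (ENSMUSG00000040035, chr2:118779719-118811293, plus strand) belongs to the Dispatched family of membrane proteins, whose relative Disp1 releases Hedgehog ligands. All 8 are annotated as protein-coding. Exons of Ppfia2, Ptprn and Resp18 overlap genes on the opposite strand (C230021G24Rik and Acss3, Gm28294, and Gm28902), and because the strandedness of the libraries was not given, reads of such partners cannot be told apart.

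The DNA before the start sites of these genes is shown because the cAMP response element (CRE) is a known control site of Th and Chga, and RefSeq sequence was printed for the 3 genes with a match outside annotated exons. RefSeq start sites (GRCm38.p6) were used for 6 of the 8 genes, and the 250 bases before each start were searched on both strands. Disp2 had no entry, and Rit2 was left out of the search. The full CRE, searched as TGACGTCA, was found before Th, 45 to 38 bases from the start, and it occurs in 1.55% of 32851 windows of that length. The shorter core TGACG, which is part of the full element, was found before Th, Chga, Ptprn and Dbh, and it occurs in 17.8% of all windows. All 250 bases of the Dbh window, and of the Ppfia2 window, lie in annotated exons. The 3 stretches below hold no annotated exon, and capitals mark the full CRE or the core, on either strand. The Chga and Th stretches have their capitals at nearly the same distance from the start, 44 and 45 bases.
Th, chr7:142900015-142900245, minus strand: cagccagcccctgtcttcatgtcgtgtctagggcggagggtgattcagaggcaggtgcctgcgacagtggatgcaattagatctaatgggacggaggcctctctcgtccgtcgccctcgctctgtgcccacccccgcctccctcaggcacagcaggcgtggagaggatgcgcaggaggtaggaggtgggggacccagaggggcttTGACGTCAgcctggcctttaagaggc
Chga, chr12:102554691-102554940, plus strand: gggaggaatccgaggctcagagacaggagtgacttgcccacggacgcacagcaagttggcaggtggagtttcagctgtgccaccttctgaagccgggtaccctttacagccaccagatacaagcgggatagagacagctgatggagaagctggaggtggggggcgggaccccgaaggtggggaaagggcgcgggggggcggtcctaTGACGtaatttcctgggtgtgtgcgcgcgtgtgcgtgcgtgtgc
Ptprn, chr1:75264214-75264433, minus strand: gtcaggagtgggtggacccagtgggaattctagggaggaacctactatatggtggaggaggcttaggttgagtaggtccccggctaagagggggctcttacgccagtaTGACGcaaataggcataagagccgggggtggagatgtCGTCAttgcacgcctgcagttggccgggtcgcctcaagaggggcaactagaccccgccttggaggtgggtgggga
A letter match is a description of the sequence only. The core letters of the binding site of REST, a repressor of neuronal genes, were searched in a left and a right part. The left part, CAGCACC, occurs in 5.73% of all windows and in 0 of the 6 genes' windows. The right part, spelled GGACAG, occurs in 18.7% of all windows and in the Dbh window, all of which is annotated exon. The GC box GGGCGG (32.7% of all windows) was found before Th, Chga, Ptprn and Ppfia2, and TATAAA (12.4% of all windows) before 0 of the 6.

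Libraries held 14.1 to 48.2 M counts. Levels are given as CPM (counts scaled to a common library total) on library sizes scaled by TMM over all 29 libraries. The smallest level taken as detectable was 3 counts, which corresponds to 0.07 to 0.227 CPM depending on the library and covers counting error only. Cdkn1b itself ran from 19.2 to 26.2 CPM in wild-type and from 4.30 to 4.71 CPM in Cdkn1b-null libraries at E13.5. The genotypes did not overlap at the other ages either, but reads of the gene remained in the null. At E18.5 it ran from 95.07 to 123.4 CPM in wild type and from 9.554 to 15.69 CPM in Cdkn1b null. The ranges were 130.6 to 174.1 and 64.28 to 80.66 CPM at PND8, and 125.6 to 259.9 and 41.39 to 56.87 CPM at 12wk. Some E13.5 libraries stood apart. Wild-type replicate 3 held 203300 CPM of 9 red blood cell genes against 6406 to 10180 in the other 6, and wild-type replicates 1 and 3 held 606 and 953 CPM of 6 skeletal muscle genes against 79.85 to 165 in the other 5. Cdkn1b-null replicate 3 held 116 CPM of 10 gut and liver genes against 15.1 to 36.2 in the other 6. The same library held 31 counts (1.196 CPM) of the Y-linked genes Ddx3y, Eif2s3y, Kdm5d and Uty, against 0 to 3 counts in the other 6. Its part in the results was not tested.

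At E13.5 all 8 genes were lower in each of the 3 Cdkn1b-null libraries than in each of the 4 wild-type libraries. Of the 16508 genes tested at that age, 2.02% showed this order. As the genes were partly chosen for this difference, nothing is read from that count. The sum of the 8 genes was 222.5, 19.2, 16.8 and 76.0 CPM in wild-type replicates 1 to 4 and 1.91, 2.24 and 3.72 CPM in Cdkn1b-null replicates 1, 3 and 4. Replicate 1 thus held the highest wild-type level, for the sum and for each of the 8 genes, and replicate 4 was next for 6 of them.

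**Figure D1:**
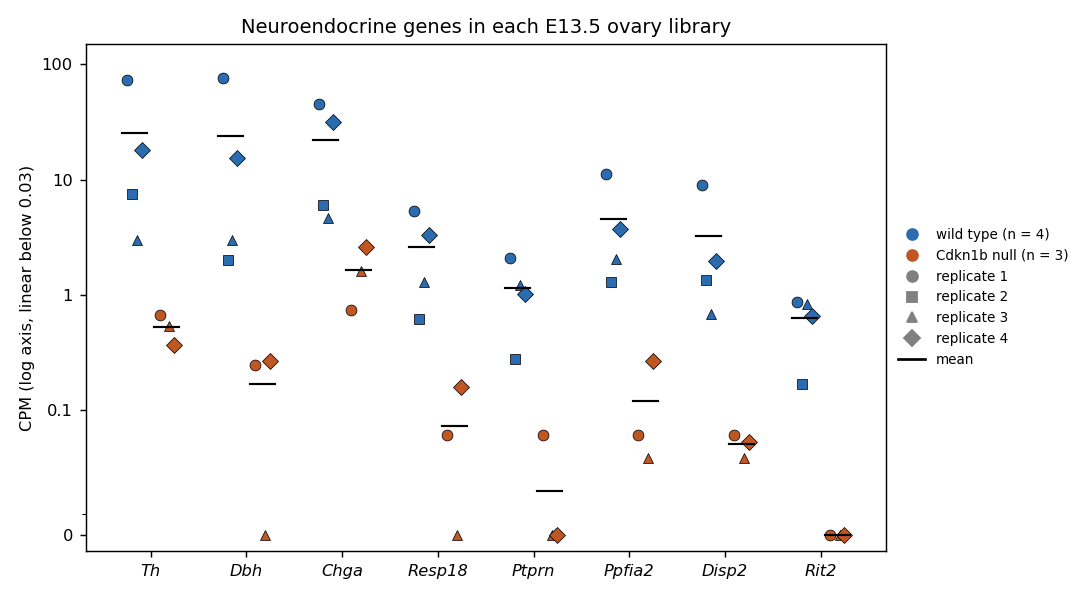
CPM of each gene in the 7 E13.5 ovary libraries, on a log axis that is linear below 0.03 CPM, with wild type in blue, Cdkn1b null in orange, marker shapes for replicate numbers and black lines for group means. Wild-type replicate 1 (circle) is highest for every gene, and no Cdkn1b-null point reaches the lowest wild-type point of its gene.

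Th measured 73.0, 7.48, 3.03 and 18.2 CPM in wild-type replicates 1 to 4 and 0.676, 0.540 and 0.372 CPM in Cdkn1b-null replicates 1, 3 and 4. The lowest wild-type library still held 40 Th counts, against 7 to 14 counts in the Cdkn1b-null libraries. Pooled over libraries, the wild-type level was 55.3 times the Cdkn1b-null level (counting interval at 95% from 39 to 81), and 20.8 times when wild-type replicate 1 was left out. This interval and those of the pooled ratios below cover counting error only, not the spread between libraries. Th is the entry enzyme of the pathway, and its E13.5 wild-type mean was 25.4 ± 32.4 CPM (SD, n = 4), a spread larger than the mean.

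Dbh was also highest in wild-type replicates 1 and 4. It measured 75.5, 2.02, 3.03 and 15.4 CPM in wild type and 0.246, 0 and 0.266 CPM in Cdkn1b-null libraries. Replicate 1 alone held 78.7% of the summed wild-type Dbh CPM. The pooled wild-type level was 187 times the Cdkn1b-null level (98.4 to 410), and 53.7 times without replicate 1.

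Of the granule genes, Chga was the one above the detectable level in every Cdkn1b-null library. It measured 45.4, 6.01, 4.69 and 31.7 CPM in wild type and 0.738, 1.62 and 2.60 CPM in Cdkn1b null, a pooled ratio of 14.8 (12.1 to 18.2), or 9.79 without wild-type replicate 1. Resp18 measured 5.31, 0.618, 1.29 and 3.32 CPM in wild type and 0.0615, 0 and 0.159 CPM in Cdkn1b null, where no library held more than 3 counts. Ptprn, its chromosomal neighbour, measured 2.09, 0.281, 1.21 and 1.02 CPM in wild type, and its 3 Cdkn1b-null libraries held 1 count in all. The Ptprn order among wild-type libraries differed from that of Resp18, with replicate 3 above replicate 4. The pooled ratio was 44.3 for Resp18 (17.1 to 164) and 72.6 for Ptprn (12.7 to 2900, an interval that rests on that single count).

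The genes of nerve terminals and neurons were lower in level but ran the same way. Ppfia2 measured 11.3, 1.29, 2.04 and 3.71 CPM in wild type and 0.0615, 0.0386 and 0.266 CPM in Cdkn1b null, a pooled ratio of 44.1 (21.2 to 110) that became 21.8 without wild-type replicate 1. Rit2 measured 0.862, 0.169, 0.833 and 0.663 CPM in wild type and had 0 counts in all 3 Cdkn1b-null libraries. Against a floor of 3 counts per library, its wild-type mean was at least 4.12-fold higher. Rit2 lies on chromosome 18 (30973489 to 31317290, minus strand). It was the most even of the 8 across wild-type libraries, with 34.1% of its summed CPM in replicate 1 and 33% in replicate 3. Disp2 measured 9.08, 1.35, 0.681 and 1.99 CPM in wild type, and each Cdkn1b-null library held 1 count, so that the pooled ratio was 74.7 (25.3 to 365), or 29.6 without wild-type replicate 1.

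Levels can be compared between genes only per length. Divided by the summed length of annotated exons, the E13.5 wild-type replicate 1 held 30.9 CPM per kb of Th, 28 of Dbh, 16.5 of Chga and 5.14 of Resp18. On the same scale Ppfia2 was at 1.04, Disp2 at 0.95, Ptprn at 0.491 and Rit2 at 0.192 CPM per kb. The enzyme and soluble granule genes thus lay above the transmembrane and synaptic genes in that library. In replicate 4 the order at the top differed, with Chga at 11.5, Th at 7.7 and Dbh at 5.73 CPM per kb.

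Marker lists of the tissues from which such transcripts could come were read in the same 7 libraries. None of the lists contains any of the 8 genes. Of 18 sympathoadrenal genes, 17 could be tested, and 16 of the 17 had a fold change below 0 in Cdkn1b null, with a median log2 fold change of -2.25 against -0.01 over all genes. None of them passed the threshold in the edgeR quasi-likelihood test (0 called, 9 at an unadjusted p under 0.05), where 0.00606% of all genes were called and 3.49% had such a p. The neuronal list had 16 of 18 genes below 0, a median of -2.76, 0 called and 12 at an unadjusted p under 0.05. DESeq2 called Elavl3, Elavl4 and Stmn3 of the neuronal list, all lower in Cdkn1b null.

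Cartpt, which encodes the precursor of the CART neuropeptide, measured 61.0 CPM in wild-type replicate 1 and 0.0531 to 1.97 CPM in the other 6 libraries. Gata3, a regulator of sympathoadrenal and of mesonephric duct cells, measured 168, 28.9, 17.8 and 48.4 CPM in wild type and 48.6, 33.2 and 23.8 CPM in Cdkn1b null, so the groups overlapped. Hand2 (2.45 to 10.3 CPM over the 7 libraries) and Phox2a (0 to 1.498 CPM) overlapped between genotypes too.

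Neuronal genes were highest in wild-type replicate 1 for 15 of the 18 that averaged at least 1 CPM at E13.5, and the same held for 12 of 14 sympathoadrenal genes. The neurofilament gene Nefl measured 418, 13.7, 74.6 and 15.4 CPM in wild type and 19.3, 2.04 and 4.198 CPM in Cdkn1b null. Tubb3, a tubulin of young neurons, measured 110, 2.87, 27.7 and 4.51 CPM in wild type and 1.97, 2.51 and 1.28 CPM in Cdkn1b null. Summed over the list, neuronal genes came to 1223 CPM in wild-type replicate 1, 79.2 to 303 CPM in the other 3 wild-type libraries and 45.1 to 92.0 CPM in Cdkn1b-null libraries. Without replicate 1 the genotypes overlapped in this sum, and the sympathoadrenal sums did so as well, at 116 to 188 against 87.05 to 204.5 CPM. The part of these cell types in the levels of the 8 genes was not tested.

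Markers of neural crest and Schwann cell precursors had fold changes below 0 without passing the test. Of 13 such genes 11 were tested and all 11 were below 0, with a median of -1.08, 0 called by edgeR and by DESeq2, and 5 at an unadjusted p under 0.05. Sox10, which defines migrating crest and glia, measured 3.36, 0, 7.19 and 0.619 CPM in wild type and 0.123, 0 and 0.106 CPM in Cdkn1b null. Foxd3, a marker of early crest, had 5 counts in wild-type replicate 1, 13 in replicate 3 and 0 in the other 5 libraries. These 2 genes were highest in replicate 3, where Th, Disp2 and Chga had their lowest wild-type levels. Ednrb, the endothelin receptor gene of migrating crest, was instead highest in replicate 1, at 120, 24.7, 37.5 and 46.05 CPM in wild type. Erbb3, a receptor gene of crest-derived glia, was 19.2, 5.68, 18.2 and 7.69 CPM in wild type and 4.41 to 8.36 CPM in Cdkn1b null.

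Skeletal muscle genes set wild-type replicates 1 and 3 apart from replicates 2 and 4. Myog, a regulator of muscle differentiation, measured 54.3, 0.618, 123 and 5.04 CPM in wild type and 0.492, 2.43 and 1.28 CPM in Cdkn1b null. All 6 muscle genes were highest in replicate 3, whereas all 8 neuroendocrine genes were highest in replicate 1. All 6 had a fold change below 0 in Cdkn1b null, with a median of -5.13. None was called by edgeR, 4 had an unadjusted p under 0.05, and DESeq2 called Acta1 and Myh3. Wild-type replicate 4, the next highest library for 6 of the 8 neuroendocrine genes, held 140 CPM of the muscle list and 113.5 CPM of the neuronal list, against 79.85 to 165 and 45.1 to 92.0 CPM in Cdkn1b null. The part of such tissue in the levels of the 8 genes was not tested.

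**Figure D2:**
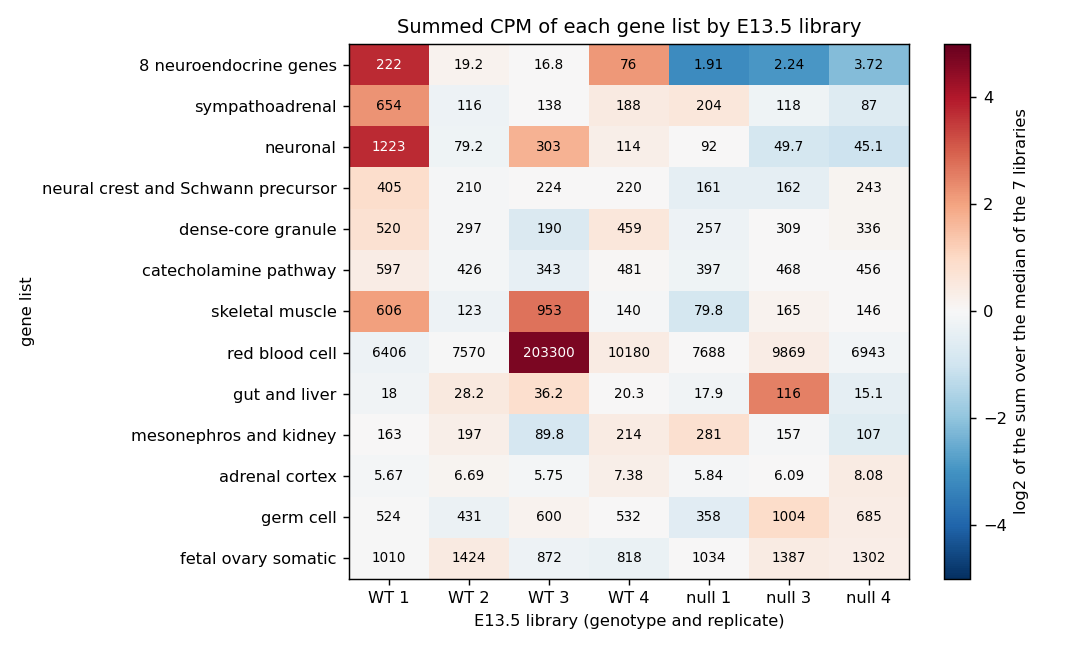
Summed CPM of each gene list (rows) in each E13.5 library (columns), with the sum printed in the cell and the colour giving the log2 ratio of the sum to the median of the 7 libraries. The 8 neuroendocrine genes and the neuronal list peak in wild-type replicate 1, the skeletal muscle and red blood cell lists in wild-type replicate 3, and the gut and liver list in Cdkn1b-null replicate 3.

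Listed markers of the adrenal cortex, pituitary and pancreatic islet overlapped between genotypes, and some were at or near 0. The adrenal cortex genes Cyp11b1 and Cyp11b2 had at most 3 counts in any E13.5 library, and Cyp21a1 had at most 6. Mc2r, Mrap and Akr1b7 of the adrenal cortex list were detected in all 7 libraries, with Mc2r, the corticotropin receptor gene, at 1.59 to 4.243 CPM in wild type and 1.659 to 4.623 CPM in Cdkn1b null. The whole adrenal cortex list summed to 5.672 to 7.38 CPM in wild type and 5.84 to 8.078 CPM in Cdkn1b null. The pancreatic islet genes Ins1, Gcg and Pdx1 and the pituitary gene Pou1f1 had 0 counts in all 7 libraries, which with a floor of 3 counts limits each to 0.227 CPM or less. Pomc, the pituitary hormone precursor gene, was detected in all 7 libraries at 2.529 to 3.358 CPM in wild type and 2.661 to 4.836 CPM in Cdkn1b null. Ins2, an insulin gene, was at 0.3785 to 0.5899 CPM in wild type and 0.2459 to 0.8503 CPM in Cdkn1b null. Sst, the somatostatin gene, measured 3.993, 0, 0.5299 and 0.1326 CPM in wild type and at most 0.1229 CPM in Cdkn1b null. The part of such cells in the results was not tested. Mesonephros and kidney genes were present but ordered differently, with 9 of 11 above 0 in Cdkn1b null and a median of 0.19. Cdh16, the cadherin of kidney tubules, measured 47.2, 50.2, 0.530 and 65.8 CPM in wild type and 80.0, 20.4 and 0.903 CPM in Cdkn1b null. Markers of the labelled tissue were present in every library, with Foxl2, a transcription factor gene of granulosa cell precursors, at 4.198 to 17.1 CPM and the germ cell gene Ddx4 at 72.3 to 221 CPM.

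In the rest of the catecholamine pathway, the transporter genes Slc6a2 and Slc18a1 were highest in wild-type replicate 1, as Th and Dbh were. Of 14 listed genes 13 were tested at E13.5, of which 9 lay below 0 with a median of -0.52, and 0 were called by edgeR or DESeq2, with 4 at an unadjusted p under 0.05. Slc6a2, which encodes the noradrenaline transporter of sympathetic neurons, measured 13.3, 0.562, 0.454 and 0.663 CPM in wild type and had 0 counts in Cdkn1b null. Slc18a1, the vesicular monoamine transporter gene of endocrine cells, measured 17.6, 4.67, 2.42 and 8.62 CPM in wild type and 2.03, 2.74 and 2.39 CPM in Cdkn1b null. Ddc, which makes dopamine, ranged from 9.50 to 24.9 CPM in wild type and from 6.98 to 8.93 CPM in Cdkn1b null. Pnmt, the adrenaline-forming enzyme gene of chromaffin cells, reached 1.95 CPM in wild-type replicate 1 and lay between 0.0615 and 0.681 CPM in the other 6 libraries. Broadly expressed members such as the pterin-recycling gene Qdpr (117 to 158 CPM) overlapped between genotypes.

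Among dense-core granule genes, Chgb, Scg2 and Scg3 lay lower in all 3 Cdkn1b-null libraries and Cpe overlapped. Of 19 listed genes 15 were tested, 13 lay below 0 with a median of -0.95, and edgeR called 0, with 5 at an unadjusted p under 0.05. DESeq2 called Chgb, Scg3, Pcsk1n and Syt4, all lower in Cdkn1b null. Chgb, which encodes chromogranin B, measured 27.0, 7.81, 3.63 and 110 CPM in wild type and 0.553, 0.116 and 0.585 CPM in Cdkn1b null, so that its highest library was replicate 4 and not replicate 1. Scg2 measured 10.1, 0.337, 0.227 and 0.707 CPM in wild type and had 1 count in Cdkn1b null. The broadly expressed peptide-processing gene Cpe lay between 115 and 236 CPM in wild type and between 184 and 263 CPM in Cdkn1b null. Among close relatives of the 8 genes, Disp1 (15.4 to 26.8 CPM), Ppfia1 (16.5 to 26.3 CPM) and Rit1 (42.2 to 59.9 CPM) overlapped between genotypes at E13.5.

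Across all genes, those whose levels were most like the mean of the 8 across the 7 E13.5 libraries were ranked by Pearson's r over 13605 named genes (predicted genes left out) with a mean of at least 1 CPM. Among the 10 highest were Fam78b (0.97), Pcsk1n (0.967), Nap1l5 (0.966), Frmd3 (0.963), C2cd4b (0.962), Rgs4 (0.959), Fam161b (0.956), Ednrb (0.951) and Ntrk3 (0.95). Of these, Pcsk1n, which encodes a granule peptide precursor, is on the dense-core granule list, and Ednrb, the endothelin receptor gene of crest cells, is on the neural crest list. Rgs4 measured 84.4, 7.98, 5.22 and 27.6 CPM in wild type and 1.70 to 3.38 CPM in Cdkn1b null. The 7 points share the libraries and their depth, and the steep replicate 1 weighs on every such r.

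After E13.5 the wild-type levels of 6 of the 8 genes were lower without overlap, an order that 17% of all tested genes showed between E13.5 and E18.5. Ptprn and Rit2, 2 of these 6, did not pass the filter on low counts, so the share covers a set without them. Resp18 had 0 counts in all 4 wild-type libraries at E18.5, and no library after E13.5 held more than 3 counts of it. Rit2 likewise stayed at 3 counts or fewer in all 22 later libraries. The wild-type mean of Dbh was 24.0 CPM at E13.5 and 0.0598 CPM at E18.5, that of Chga 21.9 and 0.206 CPM, and that of Th 25.4 and 0.613 CPM. The E13.5 values come from the libraries used to choose the genes, so this count is a description and no test is given. Pooled over libraries, Dbh was 463 times higher at E13.5 than at E18.5 (198 to 1430), Chga 116 times (73.3 to 196) and Th 45.9 times (34.9 to 61.4). Disp2 (0.340 ± 0.282 CPM at E18.5, SD, n = 4) and Ppfia2 (1.12 ± 0.362 CPM) had E18.5 wild-type ranges that overlapped those of E13.5.

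In Cdkn1b-null ovaries, where most of the genes were already near the detectable level at E13.5, 1 of the 8 was lower at E18.5 without overlap, an order shown by 18.6% of all tested genes. Of the 8, only 3 passed the filter on low counts in this step. Th measured 0.372 to 0.676 CPM at E13.5 and 0.405 to 0.860 CPM at E18.5 in the null, with overlapping ranges. The gene that was lower without overlap was Chga, at 0.738 to 2.60 CPM against 0.0478 to 0.405 CPM. Ppfia2 ran the other way in its means, from 0.122 to 0.645 CPM, and the ranges overlapped. Whether the step differed between genotypes was not tested, since it starts from the same E13.5 libraries.

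**Figure D3:**
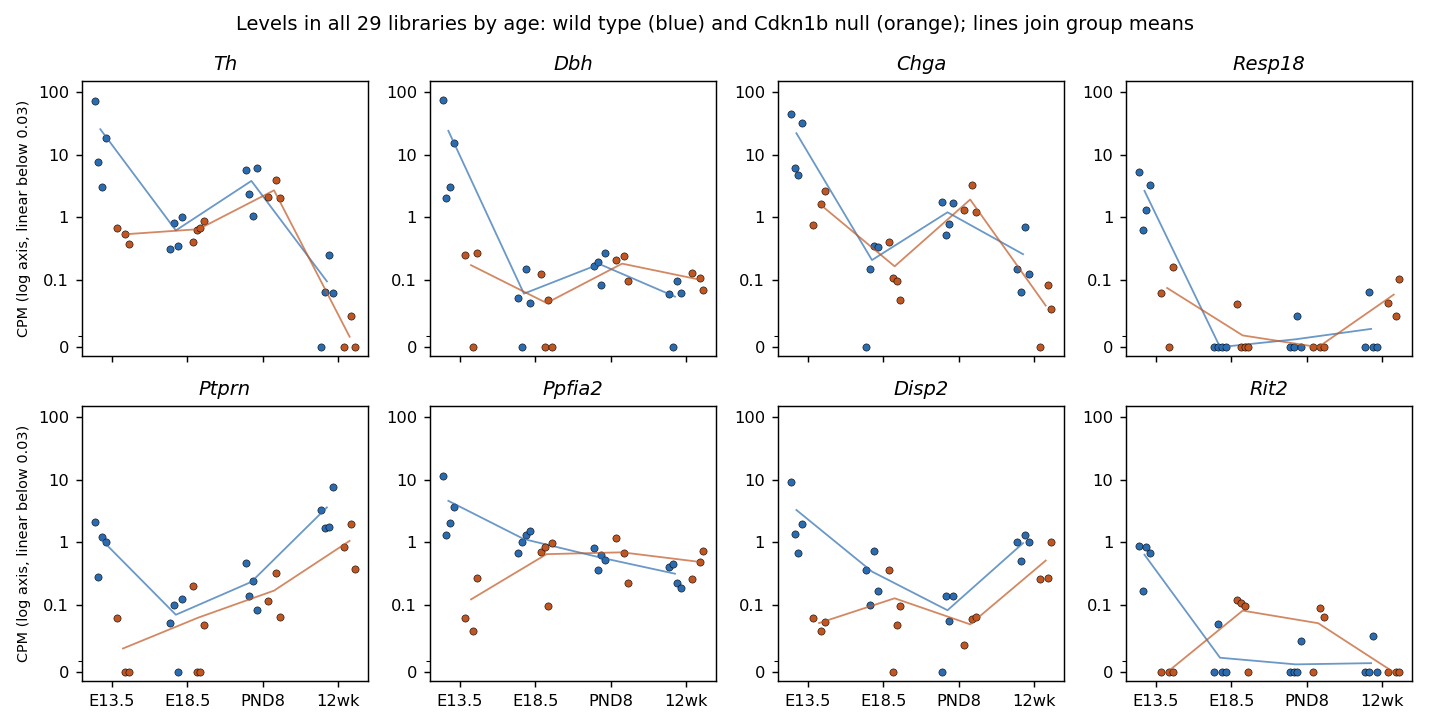
CPM of each gene in all 29 libraries by age, on a log axis that is linear below 0.03 CPM, with wild type in blue, Cdkn1b null in orange and lines joining group means. Resp18 and Rit2 stay near 0 after E13.5, Th and Chga peak again at PND8 in both genotypes, and Ptprn and Disp2 are higher at 12wk than at PND8.

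At E18.5, PND8 and 12wk no genotype difference passed the test among those of the 8 genes that could be tested. At E18.5, 2 of the 8 passed the filter on low counts and 0 were called, where 4.99% of all genes were. Th measured 0.311, 0.801, 0.340 and 1.00 CPM in wild type and 0.405, 0.630, 0.673 and 0.860 CPM in Cdkn1b null, a change of 0.02 on the log2 scale (standard error 0.475) with an adjusted p of 0.988 by edgeR's quasi-likelihood test. Ppfia2 measured 0.675 to 1.5 CPM in wild type and 0.0962 to 0.955 CPM in Cdkn1b null (-0.83 ± 0.533 standard error on the log2 scale, quasi-likelihood adjusted p = 0.388). Neither had an unadjusted p under 0.05, which 22.1% of all genes had, and DESeq2 did not call Ppfia2, the one for which it gave an adjusted p.

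At PND8, 3 of the 8 were tested and 0 were called, where 0.349% of all genes were. The log2 fold change of Cdkn1b null against wild type was -0.52 for Th (SE 0.592), 0.66 for Chga (SE 0.525) and 0.26 for Ppfia2 (SE 0.531), with edgeR quasi-likelihood adjusted p of 0.725, 0.597 and 0.867. None of the 3 had an unadjusted p under 0.05, which 15% of all genes had, and DESeq2 called 0 of the 2 for which it gave an adjusted p. All 3 had overlapping groups. Th, for example, measured 5.67, 2.38, 1.06 and 6.08 CPM in wild type and 2.12, 3.90 and 2.03 CPM in Cdkn1b null.

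At 12wk, 3 of the 8 were tested and 0 were called, where 0.0115% of all genes were. Ptprn measured 3.33, 1.70, 1.75 and 7.65 CPM in wild type and 0.853, 1.92 and 0.380 CPM in Cdkn1b null. Its log2 fold change was -1.81 (SE 0.733, edgeR quasi-likelihood, unadjusted p = 0.0397, adjusted p = 0.494). The wild-type replicate 4 was the highest, and 1 Cdkn1b-null library lay above 2 wild-type libraries. Disp2 (log2 fold change -0.90, SE 0.617) and Ppfia2 (0.64, SE 0.528) did not pass either, with edgeR adjusted p of 0.687 and 0.751. DESeq2 called 0 of the 2 for which it gave an adjusted p, and 9.63% of all genes had an unadjusted p under 0.05. The untested genes were at low counts: Dbh had at most 4 counts in any 12wk library, Th at most 8, Resp18 at most 3 and Rit2 at most 1, and Chga reached 22 counts in wild-type replicate 3.

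Th and Chga rose between E18.5 and PND8 in both genotypes. In wild type Th went from 0.613 ± 0.342 to 3.80 ± 2.46 CPM (SD, n = 4 each), a change of 2.52 on the log2 scale (standard error 0.618) with an adjusted p of 0.00368 by edgeR's quasi-likelihood test. Chga went from 0.206 ± 0.163 to 1.196 ± 0.636 CPM (2.39 ± 0.69 standard error on the log2 scale, quasi-likelihood adjusted p = 0.00917). Every PND8 library lay above every E18.5 library for both genes, as it did for 38.3% of all tested genes. This step spans birth, and 74.6% of all tested genes were called in it. Nothing is read from the number of the 8 genes called, since a gene low at both ages was not tested. Chga entered the test through its PND8 libraries, with 1 of 4 E18.5 and 4 of 4 PND8 libraries at the count minimum. With no filter on low counts edgeR's adjusted p was 0.00215 for Th and 0.00411 for Chga. Ppfia2 fell from 1.12 to 0.574 CPM (-1.06 ± 0.384 standard error on the log2 scale, quasi-likelihood adjusted p = 0.0276, 0.0721 with no filter), with overlapping groups. When single libraries were left out, edgeR called it in 3 of 8 fits (adjusted p up to 0.0925), and when replicate numbers were fitted as blocks edgeR's adjusted p was 0.0722. Leaving out PND8 wild-type replicate 3 or 4 left 1 of the 8 genes called, Th, since Chga then failed the filter on low counts and Ppfia2 missed the threshold.

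In Cdkn1b-null ovaries Th went from 0.642 ± 0.187 (n = 4) to 2.69 ± 1.05 CPM (n = 3), a change of 2.01 on the log2 scale (standard error 0.388) with an adjusted p of 0.000852 by edgeR's quasi-likelihood test. Chga went from 0.163 ± 0.163 to 1.91 ± 1.13 CPM (3.41 ± 0.646 standard error on the log2 scale, quasi-likelihood adjusted p = 0.000754). Of all genes tested 77.4% were called. Here too Chga entered through its PND8 libraries, with 1 of 4 E18.5 and 3 of 3 PND8 libraries at the count minimum, and edgeR's adjusted p with no filter was 6.39e-05. Ppfia2 was not called (log2 fold change 0.05, SE 0.686, adjusted p = 0.951). Whether the steps differed between genotypes was not tested.

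Dbh had far fewer counts than Th at PND8. The PND8 libraries held 3 to 10 Dbh counts against 39 to 224 Th counts. Dbh made up 50.8%, 21.3%, 50% and 45.9% of the Th and Dbh counts in E13.5 wild-type replicates 1 to 4, and between 2.86% and 9% in the 7 PND8 libraries. The highest upper limit of the exact binomial 95% interval at PND8 was 19.5%, and the lowest lower limit in E13.5 wild type was 15.4%, in replicate 2. In the other 3 E13.5 wild-type libraries the interval began at 38.6% or above. These intervals cover counting error only, not the spread between libraries. The E13.5 libraries were used to choose the genes, so the comparison of ages is a description without a test. The Cdkn1b-null E13.5 libraries held 12 to 15 counts of the pair, too few to place the share.

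**Figure D4:**
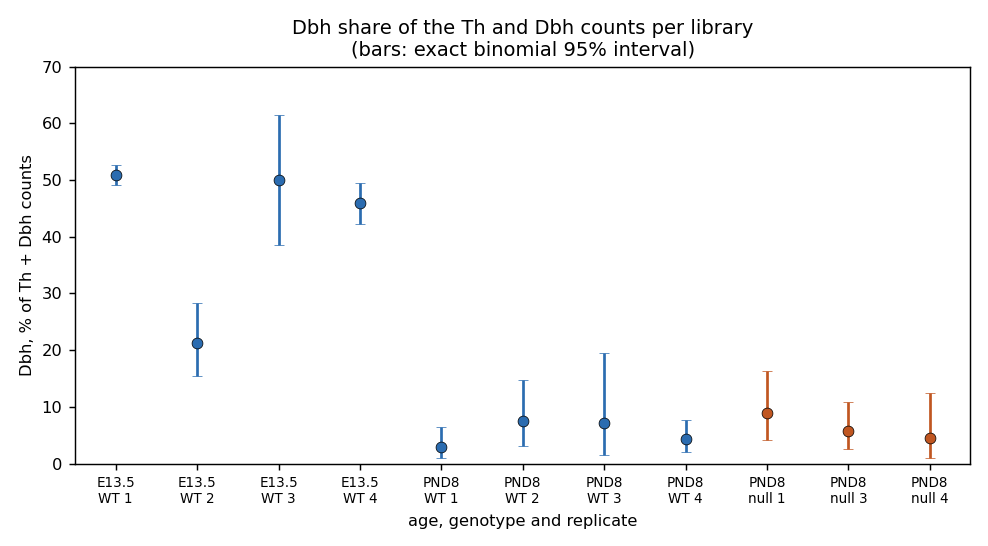
Dbh counts as a percentage of Th plus Dbh counts in the E13.5 wild-type and PND8 libraries, with exact binomial 95% intervals that cover counting error only, wild type in blue and Cdkn1b null in orange. The E13.5 wild-type libraries lie between 21.3% and 50.8%, and the 7 PND8 libraries between 2.86% and 9%.

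Of 13 listed pathway genes tested in wild type between E18.5 and PND8, 3 were called higher and 8 lower at PND8, with a median log2 fold change of -0.76, where 74.6% of all genes were called. Slc18a2, the vesicular monoamine transporter gene used by neurons and mast cells, went from 26.6 ± 6.52 to 449 ± 90.5 CPM in wild type and stood at 341 ± 84.5 CPM at 12wk (SD, n = 4). Ddc stood at 3.69 ± 0.781 CPM at E18.5 and 0.870 ± 0.346 CPM at PND8, and Slc18a1 at 2.36 ± 0.522 and 0.443 ± 0.138 CPM. Slc6a2 was between 0 and 0.200 CPM at E18.5 and between 0.895 and 3.20 CPM at PND8 in wild type.

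Between PND8 and 12wk the genes parted. Ptprn rose in wild type from 0.232 ± 0.1701 to 3.61 ± 2.80 CPM (SD, n = 4 each), a change of 4.05 on the log2 scale (standard error 0.704) with an adjusted p of 0.00324 by edgeR's quasi-likelihood test. Disp2 rose from 0.0817 ± 0.0668 to 0.967 ± 0.338 CPM (3.56 ± 0.624 standard error on the log2 scale, quasi-likelihood adjusted p = 0.00324). Th fell from 3.80 ± 2.46 to 0.0939 ± 0.109 CPM (-5.23 ± 0.885 standard error on the log2 scale, quasi-likelihood adjusted p = 0.00294). The groups did not overlap for any of these 3, nor for 34.7% of all tested genes. Chga had a log2 fold change of -2.14 (SE 0.727) that missed the threshold (edgeR quasi-likelihood, adjusted p = 0.0527). When single libraries were left out, edgeR called Chga in 1 of 8 fits, the one without 12wk wild-type replicate 3 (adjusted p = 0.00589, up to 0.125 in the others). DESeq2 called Chga (adjusted p = 0.0201). Ppfia2 had a log2 fold change of -0.78 (SE 0.416, edgeR adjusted p = 0.191). Of all genes tested 30.5% were called, and nothing is read from the number of the 8 called. Disp2 and Ptprn entered the test through their 12wk libraries, with 0 and 1 of 4 PND8 libraries at the count minimum, and Th through its PND8 libraries, with 0 of 4 at 12wk. With no filter on low counts edgeR's adjusted p was 0.00163 for Disp2, 0.0022 for Ptprn and 0.00385 for Th.

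In Cdkn1b-null ovaries 29.1% of all genes tested were called across the same step. Th and Chga entered the test through their PND8 libraries, with 0 of 3 at the count minimum at 12wk, and Ptprn through its 12wk libraries, with 1 of 3 at PND8. With no filter edgeR's adjusted p was 3.07e-05 for Th, 0.000382 for Chga and 0.024 for Ptprn. Th fell from 2.69 ± 1.05 CPM at PND8 to a total of 1 count at 12wk (edgeR quasi-likelihood, adjusted p = 0.00138), and the pooled PND8 level was 237 times the 12wk level with a counting interval from 42.2 to 9400. Chga fell from 1.91 ± 1.13 to 0.0386 ± 0.0407 CPM (edgeR quasi-likelihood, adjusted p = 0.00429), with 0, 3 and 1 counts at 12wk. Ptprn rose from 0.168 ± 0.138 to 1.05 ± 0.789 CPM (2.70 ± 0.786 standard error on the log2 scale, quasi-likelihood adjusted p = 0.0401). When single libraries were left out, edgeR made that call in 1 of 6 fits (adjusted p up to 0.125). Disp2 was not tested there and went from 0.0233 to 0.0635 CPM at PND8 to 0.256, 0.270 and 1.00 CPM at 12wk.

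Across the 8 groups, the mean level of Th ran from E13.5 wild type (25.4 CPM) through PND8 wild type (3.80) and PND8 Cdkn1b null (2.69) to E18.5 Cdkn1b null (0.642), E18.5 wild type (0.613), E13.5 Cdkn1b null (0.529), 12wk wild type (0.0939) and 12wk Cdkn1b null (0.00902). Neighbours in this order overlapped in every case except E13.5 Cdkn1b null against 12wk wild type and PND8 Cdkn1b null against E18.5 Cdkn1b null. Ptprn had a different order, led by 12wk wild type (3.61 CPM), E13.5 wild type (1.15) and 12wk Cdkn1b null (1.05). Those 3 groups overlapped with one another.

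For each gene, the genes with the most similar group means over the 8 groups were found by Pearson's r on log2 values among at least 15156 genes. Barx2 (0.994) and Fam155a (0.958) were most like Th, Mstn and Hspb3 (both 0.996) most like Dbh, Insm1 (0.989) and Casq1 (0.976) most like Chga, and Cacng1 (0.999) and Cartpt (0.998) most like Resp18. Gjd4 (0.988) was among the genes most like Rit2. Ccdc33 (0.968) and Onecut2 (0.933) were most like Ptprn, Cdh19 (0.939) and Dlx1 (0.932) most like Ppfia2, and Scg2 (0.918) and Tcap (0.913) most like Disp2. With 8 points, of which the E13.5 wild-type mean is the highest for 7 of the 8 genes, these r are a description with no test. Genes of the nerve and neuroendocrine lineages (Insm1, Cartpt, Scg2) and of skeletal muscle (Mstn, Casq1, Cacng1, Tcap) both appear among these neighbours.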

How the data were processed

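Gene expression was measured by bulk RNA sequencing in 29 mouse ovary libraries of 8 groups. Per the submitters' processing notes the tools were Trim Galore, STAR 2.5.2, RSEM 1.3.0 and FastQC 0.11.5. The authors deposited gene-level RSEM expected counts, which are estimated counts that share reads among similar genes, of which 31.4% (among values above 0, tolerance 1e-06) were fractional. The genome build, gene release and strandedness are not given in the sources used here. Positions are from GENCODE M21 (GRCm38) and promoters from RefSeq (GRCm38.p6).

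Expected counts were rounded. Each comparison was fitted on its own 2 groups over all genes with edgeR 4.0.16 (R 4.3.3): TMM, filterByExpr (minimum count 10, minimum total 15), robust quasi-likelihood F test, Benjamini-Hochberg adjustment over all genes tested, threshold 0.05 ("called"). Ratios of pooled counts have exact binomial 95% intervals, which cover counting error only and not the spread between libraries. Per-kb values use the union of annotated exons. Symbols matched 51633 of 51912 IDs. The 8 genes and the 18 lists (201 genes) were chosen with earlier results of these data known. The genes named were the 8, those that define a list, the most abundant of a list, those called in a genotype comparison and those ranked by likeness on log2(CPM + 0.5), without predicted genes. Cartpt, Slc6a2, Scg3, Myog, Disp1, Ppfia1 and the islet and pituitary genes were named after their values were seen, and some genes that the rule would name are not reported here. The 39 within-group pairs of libraries each differed by more than sampling noise (chi-square per degree of freedom 13.0 to 284.8). Tested on simulated data, the fit recovered 86.7% of changes of 2 and 55.7% of changes of 1 on the log2 scale at E18.5. The changed genes were drawn from all that passed the filter, so these shares do not give the recovery for genes as low as the 8. Alternatives were RLE size factors, no filter, DESeq2 1.42.0, all groups in 1 fit, the replicate number as a block, leaving out each library, and, for E13.5, removal of haemoglobin genes. Replicate numbers come from the sample titles.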

Additional observations from a re-analysis of the deposited data

Results flagged for a closer look

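Of 28 sets of 4 libraries of 1 gene in 1 group, 3 had a library whose gap to its nearest neighbour took up more of the range than Dixon's 95% limit allows, and chance flags about 1 in 20 sets. Disp2 in E13.5 wild type was high in replicate 1, at 9.076 CPM against 1.989 CPM in the next library (gap over range 0.844). The E13.5 libraries were used to choose the genes, so this flag is a description and not a test. Chga in E18.5 Cdkn1b null was high in replicate 1, at 0.4048 CPM against 0.105 CPM (0.84), which is 10 counts against 2. Chga in 12wk wild type was high in replicate 3, at 0.6891 CPM against 0.1459 CPM (0.868), which is 22 counts against 5.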

How the results depend on the processing

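The tested fold changes of the 8 genes were counted once per gene and alternative fit, so 1 fit can count for several genes. Of these values, 251 kept their direction and their side of the threshold. Of the others, 13 lost the call, 3 gained it and 9 changed sign, all 9 for differences that were not called. The E18.5 genotype difference of Th was -0.204, -0.178, -0.002 and -0.156 without wild-type replicate 1, wild-type replicate 3, null replicate 3 and null replicate 4 (range over all left-out libraries -0.204 to 0.36). The PND8 genotype difference of Ppfia2 was -0.12 with the replicate block and -0.349 without null replicate 1 (range -0.349 to 0.66), its step from E18.5 to PND8 in the null was -0.547 without PND8 replicate 1 and -0.323 without E18.5 replicate 3 (range -0.547 to 0.452), and its step from PND8 to 12wk in the null was 0.207 without PND8 replicate 1 (range -0.804 to 0.207). The causes were not tested.

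Of the list genes, edgeR called 0 at E13.5, DESeq2 10 and the fit of all groups together 12. Members called from E18.5 to PND8 in wild type ran from 1 to 3 when a library was left out. The count over all genes at E13.5 was 1, and 65 with DESeq2. At E18.5 it was 814 (1685 with DESeq2, 246 to 1372 without a library), at PND8 62 (0 to 824 over the alternatives) and at 12wk 2 (up to 326). Replicate numbers paired the libraries by the correlation of their deviations only between E13.5 and E18.5 in the null (lowest r 0.162). With the replicate block Ppfia2 lost its call from E18.5 to PND8 in wild type (adjusted p 0.0722 by edgeR's quasi-likelihood test), the counts over all genes became 8 at PND8 and 10 at 12wk, and no other call of the 8 genes changed. For most of these genes after E13.5, a handful of counts per library limits what can be seen.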

Other observations

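Several list genes outside the 8 that edgeR called in a genotype comparison lost the call when some single libraries were left out. Ret, a receptor gene of enteric and sympathetic precursors, was at 4.59 ± 0.369 CPM in wild type (SD, n = 4) and 1.94 ± 0.309 CPM in Cdkn1b null (n = 3) at PND8 (-1.26 on the log2 scale, edgeR adjusted p = 0.0473), and was called in 0 of 7 fits without a library (edgeR adjusted p up to 0.192). At E18.5 Tubb3 was higher in Cdkn1b null than in wild type (wild type first: 1.63 ± 0.352 against 4.05 ± 1.32 CPM, 1.27 on the log2 scale, edgeR adjusted p = 0.0374) and passed in 1 of 8 such fits. At the same age Maob (0.56, adjusted p = 0.0443), Sytl4 (0.53, adjusted p = 0.0348) and Aard (-1.21, adjusted p = 0.0256) passed in 1, 3 and 3 of 8 such fits of edgeR's quasi-likelihood test.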
